A study of Homo sapiens with 4 samples.

Results

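Autophagy machinery genes were examined in SK-MEL-28 and A375 cells treated with siNC or siLINC00622. The set holds 43 named genes, chosen by symbol for their place in the pathway and not by their values. Earlier results of these data were known when they were chosen. The table of 17755 genes has a row for 41 of them. GABARAP and ULK2 were not analysed here. Each of the 41 had at least 10 counts in both lines, so that none was lost to the filter on low counts.

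Autophagy encloses cytoplasm in a double membrane, the autophagosome, which then fuses with the lysosome. The ULK kinase complex starts the process, and a class III PI3 kinase complex marks the site with a phosphoinositide. Lipid transfer proteins enlarge the membrane, conjugation enzymes attach proteins of the ATG8 family to it, and receptors bring cargo to these proteins. mTORC1, a kinase complex that senses amino acids through the Rag GTPases, restrains the ULK complex.

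SK-MEL-28 and A375 are established human melanoma cell lines. The study asked which transcripts follow LINC00622, a long non-coding RNA, and lowered it by RNA interference. Cells received siNC, the control siRNA, or siLINC00622, stayed in medium free of serum for 6 h and then grew for 24 h in medium with serum. There were 4 libraries, 1 for each line and treatment: SK-MEL-28 siNC, SK-MEL-28 siLINC00622, A375 siNC and A375 siLINC00622. The knockdown was transient. The source label calls the samples melanoma tissues, while the cell line label gives the 2 lines. Because each condition has 1 library, no test of the treatment could be made within a line. Differences within a line are given with 95% Clopper-Pearson intervals of the ratio of counts, which cover counting error only, since the reads carry no molecular identifiers. In the text, paired values are given with siNC before siLINC00622 and SK-MEL-28 before A375, and a log2 ratio is that of siLINC00622 over siNC after TMM scaling. The only test of the treatment used the 2 lines as a pair, with 1 residual degree of freedom.

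Library totals lay between 31269923 and 36384819 counts. In SK-MEL-28, LINC00622 had 309 counts under siNC and 135 under siLINC00622, against 135 and 86 in A375. Its log2 ratio of siLINC00622 over siNC was -1.21 for SK-MEL-28 and -0.84 for A375, and the edgeR fit over both lines gave an adjusted p of 0.101. RRAGD, which encodes a Rag GTPase of the mTORC1 pathway, was lower with siLINC00622 in both lines, with log2 ratios of -2.21 and -1.34 and an adjusted p of 0.0398 in edgeR. That call was lost with library totals (edgeR, adjusted p = 0.0729), with limma (adjusted p = 0.155) and without the line as a block (edgeR, adjusted p = 1.00). All 9 melanocyte markers were listed. Their summed FPKM was 2062 and 2211 in the SK-MEL-28 libraries, led by PMEL, and 134 and 167 in the A375 libraries, where SOX10 gave most of it. SOX10 alone had an FPKM of 118 and 149 in the A375 libraries, so the other melanocyte markers together were low there. Of 8 markers of other cell types 3 were listed, with a summed FPKM between 1.55 and 7.99, and KRT14 led in A375.

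The members were moderately expressed, and their levels, given as FPKM (counts scaled for gene length and library size), spanned about the same range in each library. The median FPKM of the 41 members lay between 6.83 and 8.42 in the 4 libraries, and that of the 14721 genes expressed in both lines between 4.16 and 4.58. SQSTM1, the cargo receptor p62, stood first in every library. Its FPKM was 90.9 in SK-MEL-28 siNC, 96.3 in SK-MEL-28 siLINC00622, 90.7 in A375 siNC and 92.1 in A375 siLINC00622. RUBCN, a negative regulator of the PI3 kinase complex, stood last in every library with FPKM between 0.960 and 1.26. WIPI1 stood second in both SK-MEL-28 libraries, and VMP1, a lipid scramblase of the endoplasmic reticulum, stood second in both A375 libraries. MAP1LC3B held the fourth place in all 4.

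**Figure D1:**
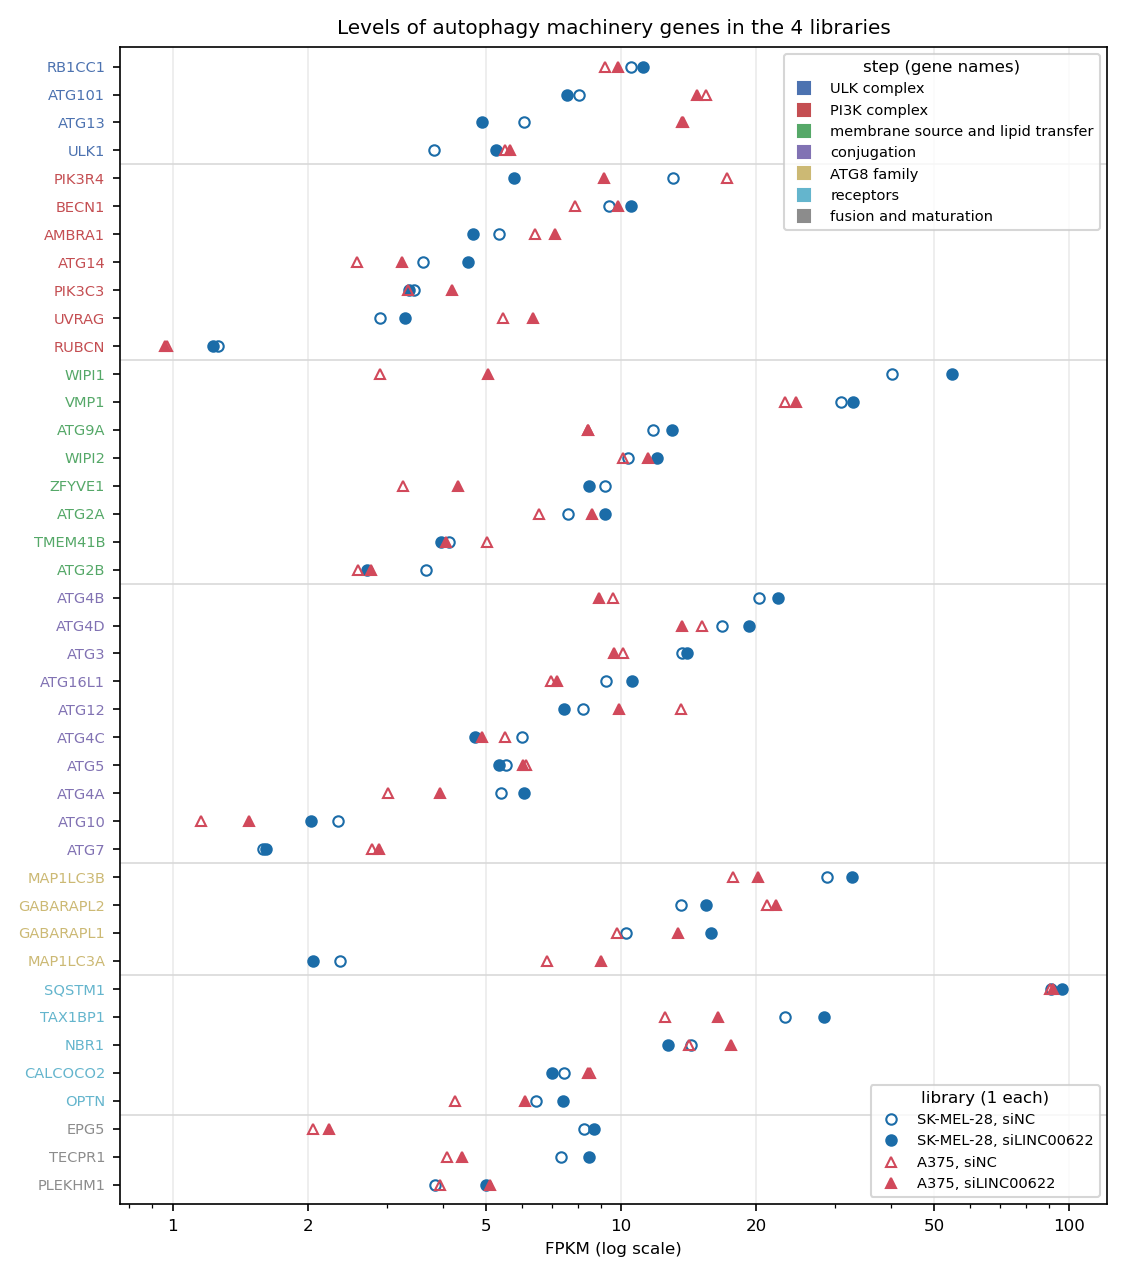
FPKM of the 41 members on a log axis, ordered by step of the pathway, with 1 symbol for each of the 4 libraries. SQSTM1 lies near 90 in all libraries, while WIPI1 runs from 2.89 in A375 siNC to 54.7 in SK-MEL-28 siLINC00622.

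With siLINC00622, few members changed by more than 1.5-fold, and most lay slightly above the control. GABARAPL1 was the only member above 1.5-fold higher in SK-MEL-28, where 4.56% of all expressed genes were, and PIK3R4 the only member as far below, against 6.49% of genes. In A375 the only member above that limit was WIPI1, against 4.52% of genes, and the only member below it was again PIK3R4, against 4.34% of genes. The median log2 ratio of the members was 0.10 for SK-MEL-28 and 0.11 for A375. Over the 14721 genes expressed in both lines it was -0.01 and 0.00.

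Agreement in sign between the lines was more frequent upwards than downwards. The log2 ratio was above 0 in both lines for 22 of the 41 members, and for 30.9% of all genes. It was below 0 in both for 8 members, and for 31.3% of all genes. With TMM over all 4 libraries ATG5, CALCOCO2 and RUBCN, whose A375 ratios were within 0.02 of 0, turned to just above 0, which left 5. The counting interval lay above 0 in both lines for 16 members, compared with 11.0% of genes. It lay below 0 in both for 2 members, PIK3R4 and ATG12, compared with 11.9% of genes. Such intervals narrow with higher counts. The members had a higher median FPKM than all genes, so these shares are not matched for level. In the edgeR fit with line and treatment as terms, PIK3R4 was the only member called lower at an adjusted p below 0.05, where 0.251% of genes were. In the same fit 0 members were called higher, and the share among all genes was 0.197%. By sign alone 31 members were higher and 10 lower. At an unadjusted p below 0.05, edgeR had 10 of the 41 members higher and 2 lower, beside 7.41% and 7.11% of all genes tested. The DESeq2 Wald test called 2 members higher, WIPI1 and GABARAPL1 (adjusted p 0.00564 and 0.0237), and 1 lower, and it also called more of all genes, 0.854% higher and 0.968% lower, while limma on log2(FPKM + 1) called 0 in either direction.

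**Figure D2:**
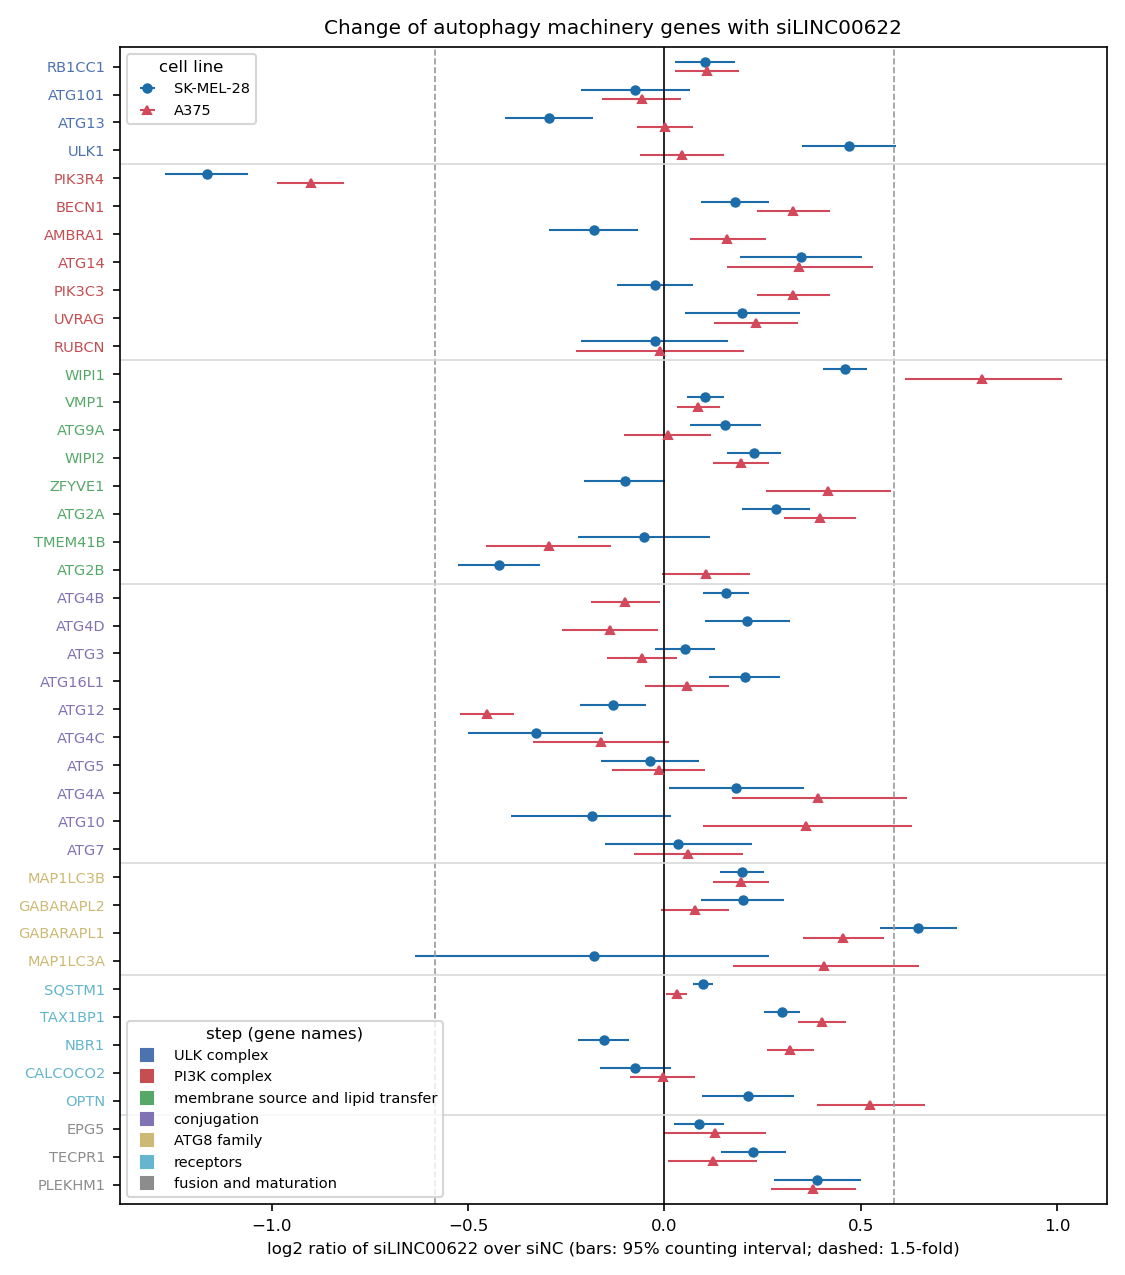
Log2 ratio of siLINC00622 over siNC for each member in SK-MEL-28 (circles) and A375 (triangles), with 95% counting intervals and dashed lines at 1.5-fold. PIK3R4 lies at -1.17 and -0.90, and GABARAPL1, WIPI1, PLEKHM1, ATG14, TAX1BP1 and ATG2A lie above 0 in both lines.

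The ULK complex holds the kinase ULK1, its scaffold RB1CC1 (FIP200) and the adaptors ATG13 and ATG101. No member of it passed 1.5-fold or the fit. ULK1 went from 966 to 1367 counts on siLINC00622 in SK-MEL-28 and from 1316 to 1570 in A375. That is a log2 ratio of 0.47 (0.35 to 0.59) for SK-MEL-28 and of 0.04 (-0.06 to 0.15) in A375, where the interval holds 0. ATG13 went from 1406 to 1172 counts in SK-MEL-28, a log2 ratio of -0.29 (-0.41 to -0.18). In A375 it had 3011 and 3484 counts, which is a log2 ratio of 0.00 after scaling. RB1CC1 was slightly higher in both lines, with log2 ratios of 0.10 and 0.11, and ATG101 was near the control in both, with -0.07 and -0.06.

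The PI3 kinase complex held the clearest change among the members. PIK3R4 encodes p150, the regulatory subunit that binds the lipid kinase PIK3C3 and is shared by its complexes. The gene lies at chr3:130678935-130746829 on the minus strand of GRCh38. In SK-MEL-28 it went from 2327 counts under siNC to 1059 under siLINC00622, and in A375 from 2902 to 1796. As FPKM these are 13.1, 5.76, 17.3 and 9.18. Both siLINC00622 values lay below both siNC values. The share of all genes with treatments as separate was not counted, so this marks nothing particular to PIK3R4. In such bulk libraries, fewer cells with a transcript and less of it per cell cannot be told apart. The log2 ratio was -1.17 (-1.27 to -1.06) for SK-MEL-28 and -0.90 (-0.99 to -0.82) for A375, 0.446 and 0.536 of the control. The fit over both lines gave -1.02 (edgeR, adjusted p = 0.0398). The call was lost with library totals in place of TMM scaling (edgeR, adjusted p = 0.0729), with limma on log2(FPKM + 1) (adjusted p = 0.104) and without the line as a block (edgeR, adjusted p = 1.00).

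A stretch of the PIK3R4 transcript matches the seed of a siLINC00622 siRNA, which is shown here because this gene carries the finding. The study lists 2 siRNAs against LINC00622, and which of them was used for the sequenced cells is not given in the sources used here. The seed is bases 2 to 8 of the guide strand, and a perfect match to it in a 3′ UTR is a short word that also occurs in many genes. Both targets in LINC00622 are given 5′ to 3′, with the bases that face the seed in capitals, followed by the PIK3R4 match to the siLINC00622_1 seed. That match is at chr3:130679061-130679067 on the minus strand of GRCh38, in a 3′ UTR of 380 bases, and 11 of the 19 bases printed equal those of the target.
siLINC00622_1 target: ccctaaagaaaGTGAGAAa
siLINC00622_2 target: ggcaacctctaATTGACTt
PIK3R4 3′ UTR: atgttatagagGTGAGAAa
The longest run that PIK3R4 shares with the siLINC00622_1 target is 8 bases, GTGAGAAA, and contains this match. With the siLINC00622_2 target it shares a run of 10 bases, TAATTGACTT, at chr3:130708362-130708371, upstream of the 3′ UTR. The part of these matches in the lower PIK3R4 counts was not tested.

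The other genes of the PI3 kinase complex did not follow PIK3R4. BECN1 (Beclin 1), a core subunit, had 1997 and 2312 counts for SK-MEL-28 and 1584 and 2299 for A375, log2 ratios of 0.18 (0.09 to 0.27) and 0.33 (0.23 to 0.42). ATG14, the subunit that directs the complex to autophagosome formation, had 601 and 782 counts for SK-MEL-28 and 404 and 593 for A375. Its log2 ratios were 0.35 (0.19 to 0.50) and 0.34 (0.16 to 0.53), nearly equal in the lines. UVRAG, the subunit of the endosomal complex, was at 0.20 and 0.23. PIK3C3, the kinase itself, was at -0.02 for SK-MEL-28 and 0.33 for A375. AMBRA1, a Beclin 1 partner, was at -0.18 and 0.16, and RUBCN at -0.03 and -0.01. For BECN1, ATG14, UVRAG, PIK3C3, AMBRA1 and RUBCN the edgeR fit gave adjusted p-values between 0.236 and 0.997.

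Among the genes for membrane source and lipid transfer, WIPI1 differed most with the treatment. WIPI1 binds the phosphoinositide that the PI3 kinase makes. It had 4525 and 6361 counts for SK-MEL-28 and 308 and 625 for A375, and its FPKM was 40.2, 54.7, 2.89 and 5.05. The siLINC00622 value was the higher in each line, and both A375 values lay far below both SK-MEL-28 values. The log2 ratio was 0.46 (0.40 to 0.52) for SK-MEL-28 and 0.81 (0.61 to 1.01) for A375. The edgeR fit gave 0.62 with an adjusted p of 0.101, which reached 0.0498 when only genes with at least 100 counts were tested. That setting called 0.589% of its genes higher.

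The lipid transfer proteins ATG2A and ATG2B, which are paralogs, had unlike ratios in SK-MEL-28. ATG2A had 1979 and 2463 counts for SK-MEL-28 and 1609 and 2450 for A375, log2 ratios of 0.28 (0.20 to 0.37) and 0.40 (0.31 to 0.49). ATG2B had 1731 and 1321 counts for SK-MEL-28 and 1157 and 1439 for A375, log2 ratios of -0.42 (-0.53 to -0.32) and 0.10 (-0.01 to 0.22). ATG2A was thus higher in both lines, and ATG2B lower in SK-MEL-28 with an interval that holds 0 in A375. WIPI2, a WIPI1 paralog that recruits ATG16L1, was at 0.23 and 0.19, and VMP1 at 0.10 and 0.09. ATG9A, a scramblase of the vesicles that seed the membrane, was at 0.16 and 0.01. ZFYVE1 (DFCP1), a marker of the site on the endoplasmic reticulum, was at -0.10 for SK-MEL-28 and 0.42 for A375. TMEM41B, a scramblase that works beside VMP1, was at -0.05 and -0.29. For these genes other than WIPI1 the adjusted p in edgeR was between 0.177 and 0.726.

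The 10 conjugation genes showed no common direction. Their median log2 ratio was 0.04 for SK-MEL-28 and -0.04 for A375, and 3 were above 0 in both lines and 3 below. ATG12, the ubiquitin-like protein joined to ATG5, had 2418 and 2256 counts for SK-MEL-28 and 3782 and 3195 for A375. This is a log2 ratio of -0.13 (-0.21 to -0.05) and -0.45 (-0.52 to -0.38), and both intervals lay below 0 (edgeR, adjusted p = 0.292). ATG5 itself was at -0.04 and -0.01, and ATG16L1, which places the conjugate on the membrane, at 0.20 and 0.06. The E1-like enzyme ATG7 was at 0.04 and 0.06, and the E2-like enzyme ATG3 at 0.05 and -0.06. ATG10, the E2-like enzyme for ATG12, was at -0.19 and 0.36.

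The proteases of the ATG4 family, which trim and release ATG8 proteins, had ratios of both signs. ATG4A had 524 and 608 counts for SK-MEL-28 and 277 and 421 for A375, log2 ratios of 0.18 and 0.39. ATG4B had 4465 and 5087 counts for SK-MEL-28 and 1996 and 2154 for A375, which is 0.16 and -0.10. ATG4C had 619 and 504 counts for SK-MEL-28 and 537 and 555 for A375, which is -0.33 and -0.16. ATG4D, like ATG4B, was higher in SK-MEL-28 and lower in A375 with siLINC00622, at 0.21 and -0.14. The adjusted p in edgeR was between 0.393 and 0.896 for these 4 proteases.

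In the ATG8 family, GABARAPL1 stood out from MAP1LC3B and GABARAPL2. GABARAPL1 had 1374 and 2200 counts for SK-MEL-28 and 1244 and 1974 for A375, with FPKM of 10.2, 15.9, 9.82 and 13.4. Both siLINC00622 values lay above both siNC values, as they also did for SQSTM1, which differed little. The log2 ratios were 0.65 (0.55 to 0.75) and 0.46 (0.35 to 0.56), and the edgeR fit gave 0.56 with an adjusted p of 0.0949. MAP1LC3B, the LC3 protein most used to follow autophagosomes, had 4807 and 5629 counts for SK-MEL-28 and 2798 and 3702 for A375. Its log2 ratios were 0.20 (0.14 to 0.25) and 0.19 (0.12 to 0.27) (edgeR, adjusted p = 0.342). MAP1LC3B2 is a near-identical copy whose reads may be shared, and the summed counts of the pair gave 0.20 in both lines. GABARAPL2 was at 0.20 and 0.08. MAP1LC3A, at 90 and 81 counts for SK-MEL-28 and 246 and 378 for A375, was at -0.18 (-0.63 to 0.27) and 0.41 (0.17 to 0.65).

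Of the cargo receptors, TAX1BP1, OPTN and SQSTM1 were higher in both lines with siLINC00622. TAX1BP1 had 7051 and 8867 counts for SK-MEL-28 and 3601 and 5500 for A375, log2 ratios of 0.30 (0.25 to 0.34) and 0.40 (0.34 to 0.46) (edgeR, adjusted p = 0.135). OPTN (optineurin), a receptor for damaged mitochondria and bacteria, had 1102 and 1305 counts for SK-MEL-28 and 685 and 1140 for A375, which is 0.21 and 0.52. SQSTM1 differed little, with log2 ratios of 0.10 (0.07 to 0.12) and 0.03 (0.00 to 0.06), and its narrow intervals come from at least 21368 counts in each library. NBR1, which acts with SQSTM1, was at -0.15 for SK-MEL-28 and 0.32 for A375. CALCOCO2 (NDP52), a receptor for bacteria and mitochondria, was near the control in both, at -0.07 and 0.00.

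All 3 genes for fusion and maturation were above 0 in both lines. PLEKHM1, an adaptor that binds RAB7 and the HOPS tether, had 1177 and 1576 counts for SK-MEL-28 and 1142 and 1718 for A375. Its log2 ratios were 0.39 (0.28 to 0.50) and 0.38 (0.27 to 0.49) (edgeR, adjusted p = 0.143). TECPR1, a protein of the lysosome membrane, was at 0.23 and 0.12, and EPG5, a RAB7 effector and tether, at 0.09 and 0.13.

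A wider list of 57 pathway genes was read beside the members, of which 53 were listed and expressed in both lines. The edgeR fit called 1 of the 53 higher and 1 lower across the lines, where 0.197% and 0.251% of all genes were. The gene called lower was RRAGD, which the study had already picked from these same data as lower in both lines. Neither its call nor its fold change is thus an independent result for the list. TP53INP2, which encodes a protein that binds ATG8 proteins, rose. Its FPKM was 11.5 and 19.5 for SK-MEL-28 and 2.33 and 4.18 for A375, log2 ratios of 0.77 and 0.85 (edgeR, adjusted p = 0.0437). The call was lost with library totals (edgeR, adjusted p = 0.0761), with limma (adjusted p = 0.106) and without the line as a block (edgeR, adjusted p = 1.00). TP53INP2 and RRAGD, the gene called lower, were also the only ones of the 53 past 1.5-fold in the same direction in both lines. Of the 15 other fusion genes 14 were above 0 in SK-MEL-28, 15 in A375 and 14 in both, beside 49.0%, 50.6% and 30.9% of the genes expressed in both lines. The edgeR fit called 0 of the 15 and had 7 higher at an unadjusted p below 0.05, against 7.41% of all genes. With a minimum of 100 counts edgeR called 1, TECPR2, a protein of the endoplasmic reticulum that binds ATG8 proteins (adjusted p = 0.0498). The DESeq2 Wald test also called it (adjusted p = 0.0135), and limma called 0. Those edgeR and DESeq2 settings called 0.589% and 0.854% of all genes higher. TECPR2 is named here after its values were seen. The median log2 ratio of the 15 was 0.13 and 0.24. The 17 organelle receptors had medians of -0.01 and 0.05, and the 13 kinases and factors upstream -0.08 and 0.01.

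The ratios of the members went partly together in the 2 lines. Across the 41 members, Pearson's r between the log2 ratios of the lines was 0.63 and Spearman's rho 0.43. Without PIK3R4, r was 0.41 and rho 0.39 over 40 genes. Over the 14721 genes, which were not matched to the members for level, r was 0.26 and rho 0.30. These describe genes of the same 4 libraries, which are not independent replicates. The member ratios differed most between the lines for MAP1LC3A, ATG10, ATG2B, ZFYVE1 and NBR1. For ATG2B the log2 ratio in SK-MEL-28 minus that in A375 was -0.53 (-0.68 to -0.37), for ZFYVE1 -0.52 (-0.70 to -0.33) and for NBR1 -0.47 (-0.56 to -0.39), with counting intervals. For ULK1 it was 0.42 (0.26 to 0.58). MAP1LC3A, at -0.59 (-1.08 to -0.10), and ATG10, at -0.55 (-0.87 to -0.22), had lower counts and wider intervals than these.

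Seed matches were looked for in the longest annotated 3′ UTR of all members, on the strand of the transcript. The siLINC00622_1 seed match, GTGAGAA, was in 8 of 41 members (19.5%) and in 14.6% of 12370 genes. The siLINC00622_2 seed match, ATTGACT, was in 5 members (12.2%) and in 11.6% of genes. Of the 8 members with log2 ratios below 0 in both lines, 4 held the siLINC00622_1 match, namely PIK3R4, ATG12, ATG4C and TMEM41B, and 4 did not. The share with the match among all genes below 0 in both lines was not counted, so no enrichment can be read from this. The 3 after PIK3R4 are printed with the match in capitals, beside MAP1LC3B, which holds it and was above 0 in both lines. In GRCh38 the matches are at chr5:115829281-115829287 (minus strand), chr1:62865143-62865149 (plus strand), chr11:9281535-9281541 (minus strand) and chr16:87403637-87403643 (plus strand).
ATG12 3′ UTR: tgtaacacaaaGTGAGAAa
ATG4C 3′ UTR: ataataaagatGTGAGAAg
TMEM41B 3′ UTR: gtactttagctGTGAGAAa
MAP1LC3B 3′ UTR: aaacgggctgtGTGAGAAa
ATG12 equals the siLINC00622_1 target at 13 of the 19 bases, ATG4C at 10, TMEM41B at 8 and MAP1LC3B at 8. TMEM41B and ATG2B also hold a siLINC00622_2 match.

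The median log2 ratio of the 8 members with the siLINC00622_1 match was -0.16 for SK-MEL-28 and -0.03 for A375. For the other 33 it was 0.16 and 0.12. Over all genes with the match it was -0.08 for SK-MEL-28 and -0.02 for A375, and without it 0.00 and 0.02. For the siLINC00622_2 match the members were at -0.05 for SK-MEL-28 and 0.10 for A375 with it, and at 0.13 in both lines without it. Over all genes with the siLINC00622_2 match the median was -0.073 for SK-MEL-28 and -0.008 for A375, and without it -0.002 and 0.013. The shift over all genes was thus similar for both siRNAs in SK-MEL-28. Members with a match were found on both sides of 0. EPG5 and MAP1LC3B, with the siLINC00622_1 match, and PLEKHM1 and RB1CC1, with the siLINC00622_2 match, were higher in both lines. The part of seed matches in the members' ratios was not tested.

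**Figure D3:**
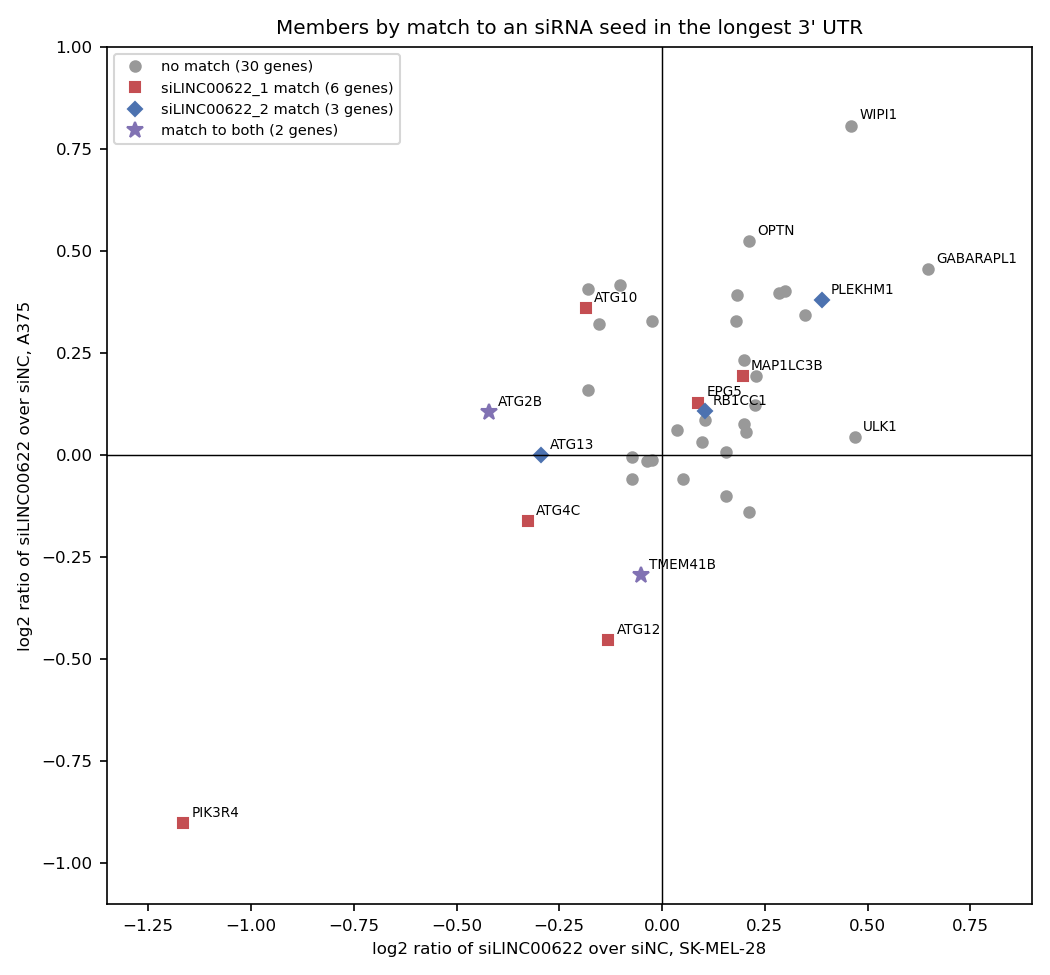
Log2 ratio of each member in SK-MEL-28 (horizontal) and A375 (vertical), with symbols for a siRNA seed match in the longest 3′ UTR. PIK3R4, at -1.17 and -0.90, ATG12, ATG4C and TMEM41B are the 4 matched members in the lower left part, and 4 other matched members lie in the upper right.

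Promoters were read for 36 members with a RefSeq entry (GRCh38.p14, from 250 bases before to 50 after the start). The E-box CACGTG, searched on both strands, occurred in 2 of the 36 (5.56%) and in 8.77% of all genes with an entry. These were ATG14 and ATG3, which also held the longer word CACGTGA. It contains the E-box and is the core of the element bound by TFEB and its relatives, and 4.49% of genes held it. The words are printed for the strand of the gene, because ATG14 was higher in both lines and ATG3 was not. The E-box of ATG14 is at chr14:55411846-55411851. ATG3 has 2, at chr3:112561975-112561980, before the start, and at chr3:112561952-112561957, after it. The former, which is printed, belongs to CACGTGA on the other strand, and the latter to CACGTGA on both strands.
ATG14 promoter: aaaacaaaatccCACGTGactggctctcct
ATG3 promoter: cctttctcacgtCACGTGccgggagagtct
The AP-1 word TGACTCA was in 1 of the 36 members, ZFYVE1 (2.78%), and in 6.05% of genes. A gene was counted if any of its windows held a word. The ZFYVE1 window, chr14:72986907-72987206, lies inside the gene (chr14:72969451-73027212, minus strand) and not at its annotated 5′ end. WIPI1, GABARAPL1, TAX1BP1 and PLEKHM1 had neither word in these windows.

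The lines differed from each other much more than the treatments did. In the edgeR fit 23 of the 41 members were called higher in SK-MEL-28, where 33.3% of all genes were. Another 8 were called lower, where 34.4% of all genes were. The median log2 difference of SK-MEL-28 over A375 was 0.33 for the members and 0.00 for all genes expressed in both lines. Scaling matters here, because library totals in place of TMM moved the median of all tested genes from -0.04 to -0.21. That left 17 members called higher and 9 called lower. These differences compare 1 culture series of each line and say nothing of melanoma subtypes.

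With TMM scaling all 8 genes for membrane source and lipid transfer had a log2 difference above 0, and 6 of them were called, led by WIPI1. With library totals TMEM41B turned from 0.01 to -0.16, and ATG2A and ATG2B lost their calls with library totals and with limma, which left 4. The WIPI1 log2 difference was 3.78, or 13.7-fold (edgeR, adjusted p = 9.06e-07), at 3.97 between the siNC libraries and 3.60 between the siLINC00622 libraries. EPG5 followed, with 3760 and 4085 counts for SK-MEL-28 and 882 and 1115 for A375, a log2 difference of 2.16 (edgeR, adjusted p = 2.8e-06). ZFYVE1 was at 1.40, ATG4B at 1.37, TECPR1 at 1.06 and TAX1BP1 at 1.00. These genes come from 4 different steps of the pathway. WIPI1, EPG5, ZFYVE1, ATG4B, TECPR1 and TAX1BP1 were called in all 8 settings of the fit.

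Genes lower in SK-MEL-28 included both adaptors of the ULK complex and some ATG8 proteins. MAP1LC3A had FPKM of 2.36 and 2.06 for SK-MEL-28 and 6.83 and 9.02 for A375, a log2 difference of -1.66 (edgeR, adjusted p = 0.000423). MAP1LC3B went the other way, with FPKM of 28.8 and 32.7 for SK-MEL-28 and 17.8 and 20.2 for A375, a log2 difference of 0.87 (edgeR, adjusted p = 0.000117). GABARAPL2 was lower in SK-MEL-28, at -0.41, and was called in all 8 settings. GABARAPL1 was at 0.33 and was called in 4 of the 8, with adjusted p-values up to 0.273. ATG13 was at -1.16 and ATG101 at -0.78, while their scaffold RB1CC1 was at 0.36. UVRAG was at -0.76 and ATG14 at 0.66, so that these 2 subunits, 1 from each PI3 kinase complex, differed in opposite directions between the lines. RUBCN was at 0.54 (edgeR, adjusted p = 0.00965) and was called in 6 of the 8 settings. ATG7 was at -0.66. ATG12 was at -0.40, from -0.55 between the siNC libraries and -0.25 between the siLINC00622 libraries. PIK3R4 was at -0.36, from -0.22 and -0.51, and lost its call with the DESeq2 Wald test (adjusted p = 0.0666) and without the treatment in the fit (edgeR, adjusted p = 0.533). ATG12 lost its call only in the latter setting (edgeR, adjusted p = 0.0667).

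**Figure D4:**
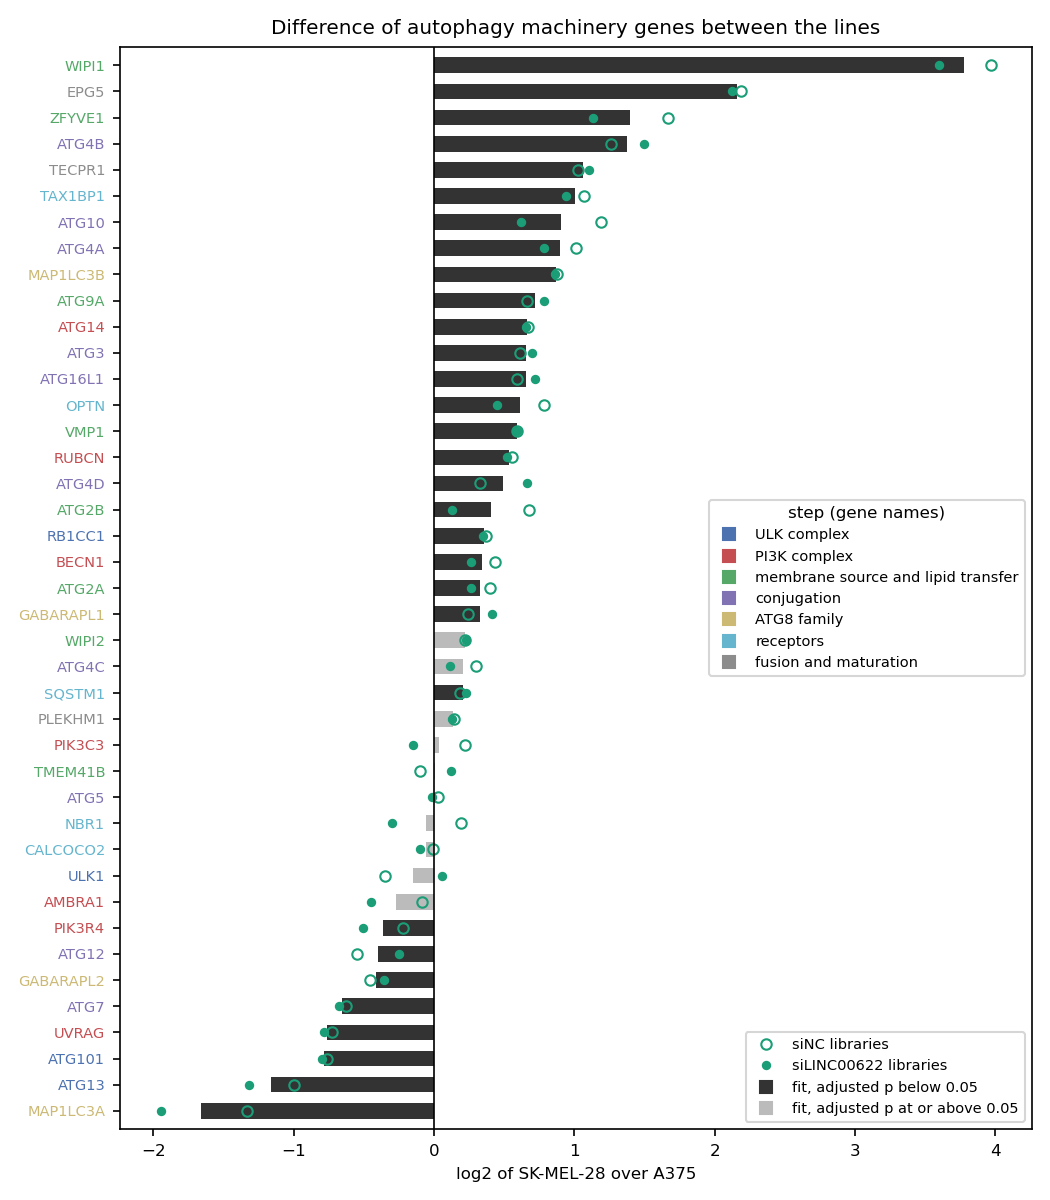
Log2 of SK-MEL-28 over A375 for each member. Bars give the edgeR fit over the 4 libraries, dark where the adjusted p is below 0.05, and circles give the difference within the siNC and within the siLINC00622 libraries. WIPI1, at 3.78, stands above the rest, and MAP1LC3A, at -1.66, below.

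Among the 53 other pathway genes, edgeR called 34 higher in SK-MEL-28 and 9 lower, where 33.3% and 34.4% of all genes were. The largest differences upward were those of MITF, the melanocyte factor of the TFEB family, at 4.09, STX7, an endosomal SNARE, at 3.24 and RUBCNL, a RUBCN relative, at 3.17. Downward they were those of PRKAA2, a catalytic subunit of AMPK with 10 and 9 counts for SK-MEL-28 and 427 and 676 for A375, at -5.64, TFE3, another TFEB relative, at -1.13 and PHB2, a mitochondrial receptor, at -0.93. The line with more members higher was also the line with the high melanocyte markers. With 1 cell line on each side the marker level and the line cannot be told apart.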

How the data were processed

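RNA-Seq libraries of 2 melanoma lines with siNC or siLINC00622 were grouped by their labels, 1 library per condition. The study's methods describe poly(A) enrichment and paired-end sequencing. The submitters' processing notes name HISAT2, TopHat2, Bowtie2, HISAT and hg19, without versions or roles. The counter, its use of strand and the annotation are not given in the sources used here. The table deposited by the authors holds counts, which are whole numbers per gene. CPM, as the authors deposited them, divide each count by its library's total. The FPKM that the authors deposited equal CPM divided by 1 length per gene. The TPM that the authors deposited are FPKM times 1 factor per library, so that members rank alike by either.

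Log2 ratios within a line used TMM scaling (edgeR 4.0.16, R 4.3.3), a prior count of 2 and genes with at least 10 counts in 1 library. The treatment and line fits used edgeR's quasi-likelihood test with both terms over the 4 libraries, TMM scaling and Benjamini-Hochberg adjustment over 16742 genes at 0.05. No residual replicates exist beyond the pair of lines. The p-values set the mean change against the spread of the treatment effect between the lines, with 1 residual degree of freedom. edgeR moderates this spread with a trend over all genes, at 5.78 prior degrees of freedom, so most of the error estimate comes from other genes. DESeq2 1.42.0 and limma 3.58.1 gave alternatives. On simulated counts of 16513 genes, the treatment fit recovered 99 of 100 genes changed by 1 on the log2 scale. It also recovered 100 of 100 changed by 2, and the whole run gave 11 false calls. The simulation gave each gene 1 mean in both lines, a fixed dispersion and the same change in both lines. Changes were planted only in genes with a mean of at least 100 counts. It cannot give the power of the fit where the lines respond unlike. The labels carry no replicate numbers, and pairing is by cell line.

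Depth was between 31269923 and 36384819 counts, and 99.7% to 99.8% fell on listed genes. Seed matches used GRCh38 with GENCODE 29 and promoters RefSeq, not the authors' build. The members and lists were chosen with earlier results of these data known. Named are all members, LINC00622, RRAGD, near-identical copies, and other pathway genes that were past 1.5-fold alike in both lines, called for treatment, or among the 3 largest line differences in each direction.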

Additional observations from a re-analysis of the deposited data

Results flagged for a closer look

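For 4 members the lines lay on opposite sides of the control, each with a counting interval apart from 0. The share of all genes with such intervals was not counted. The log2 ratio of siLINC00622 over siNC of AMBRA1 was -0.18 for SK-MEL-28 and 0.16 for A375. In the same order it was 0.16 and -0.10 for ATG4B, and 0.21 and -0.14 for ATG4D. For NBR1 it was -0.15 and 0.32. The A375 intervals of ATG4B and ATG4D ended close to 0, at -0.011 and -0.018. With TMM over all 4 libraries the A375 median of all genes moved from 0.004 to 0.025, so these 2 depend on the scaling. With 1 library per condition the difference between the lines was not tested.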

How the results depend on the processing

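The counts of members past a fold limit depended on the limit. At 1.2-fold, SK-MEL-28 had 7 members higher and 4 lower, and A375 had 14 higher and 3 lower, beside 17.1%, 19.8%, 17.3% and 17.0% of all expressed genes in that order. At 2-fold, 0 were higher in either line, 0 were lower in A375, and PIK3R4 stayed in SK-MEL-28. With TMM over all 4 libraries, 5 members in place of 8 were lower in both lines, since A375 ratios moved up. The treatment calls depended on the method. The DESeq2 Wald test called 2 members higher, and a minimum of 100 counts 1, beside 0.854% and 0.589% of all genes. With library totals, with limma on log2(FPKM + 1) and without the replicate block (the pairing by line), 0 members were called lower, and the cause was not tested. These 3 settings called 1, 1 and 0 of all genes, where edgeR with TMM had called 33 higher and 42 lower. The median ratios of the members stayed above 0 in each line, and 21 or 22 members were higher in both lines. The line fit called between 16 and 24 members higher and between 6 and 9 lower in the settings run. Of 1396 comparisons of single genes with an alternative, 1247 kept their side of the threshold or stayed within their error, 114 moved, 29 lost and 6 gained a call. Line differences within a single treatment could only be counted as moved or as reversed, however small the move. They make up most of the moved values, which is thus no measure of stability. No called value changed sign. With 1 library per condition, leaving out a library left the other line's value with no test, and for PIK3R4 these were -1.17 and -0.90.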
